A study of Homo sapiens with 9 samples.

Results

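The BAF (SWI/SNF) chromatin remodelling complex exchanges several of its subunits as stem cells become neurons, and 10 genes of that exchange were followed here: ACTL6A, ACTL6B, PHF10, DPF1, DPF2, DPF3, SS18, SS18L1, SMARCA2 and SMARCA4. They were taken by name from 19775 genes with a probe set on the Affymetrix arrays, and 33 probe sets named only 1 of the 10. A further probe set, which names SS18 together with another gene, was left out. Where a gene had several, the brightest of them on average is called its main probe set. All 10 genes were tested, and no filter on low values was applied in the main comparison.

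The cells were 3 established human embryonic stem cell lines, Shef3, H14 and Shef1, with 1 array per line in each of 3 groups. The FGF3+10 group had grown for 14 days on laminin in DFNB medium (DMEM and F12 with the N2 and B27 supplements) that held 50 ng/ml of FGF3 and 50 ng/ml of FGF10. The DFNB group had spent 14 days in that medium without the added FGFs. The hESC group was undifferentiated, at day 0, on mouse embryonic fibroblast feeders with basic FGF. The series is titled as a study of differentiation into otic progenitors, the cells that found the inner ear. No line was repeated within a group, so the SD of a group and the p-values of the main group comparisons rest on the spread between lines.

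BAF complexes use the energy of ATP to move nucleosomes, and they are built around SMARCA4 (BRG1) or SMARCA2 (BRM), which are alternative ATPases. Work in mice showed that embryonic stem cells and neural progenitors carry ACTL6A (BAF53A), PHF10 (BAF45A) or DPF2 (BAF45D) and SS18, while neurons that have stopped dividing carry ACTL6B (BAF53B), DPF1 (BAF45B) or DPF3 (BAF45C) and SS18L1 (CREST). In the mouse the change of subunits accompanies exit from the cell cycle, and the microRNAs miR-9 and miR-124, once released from the repressor REST, lower ACTL6A. Mouse embryonic stem cells use SMARCA4, and SMARCA2 appears later in development.

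None of the 10 genes was called in any comparison of groups (limma, adjusted p below 0.05 over all genes), and the arrays therefore gave no call of an exchange in either direction. The share of all genes called was 0.202% for DFNB against hESC, 0.177% for FGF3+10 against hESC and 0% for FGF3+10 against DFNB. Between DFNB and hESC, 2 of the 10 had an unadjusted p below 0.05, SMARCA2 on the high side and ACTL6B on the low side, where 15.8% of all genes passed that mark. Between FGF3+10 and hESC it was 0 of the 10 against 12% of all genes (4.52% higher and 7.47% lower). Between FGF3+10 and DFNB it was 0 of the 10 against 1.52% (0.723% higher and 0.794% lower). The arrays of DFNB and hESC did not overlap for 4 of the 10 genes, PHF10, SS18L1 and SMARCA2 on the high side and ACTL6B on the low side. Over all genes 7.8% lay wholly higher and 14.3% wholly lower. Between FGF3+10 and hESC SS18L1 alone of the 10 did not overlap, on the high side, where 5.68% of all genes lay wholly higher and 11.3% wholly lower. Between FGF3+10 and DFNB 0 of the 10 stood apart, where 1.46% of all genes lay wholly higher and 1.72% wholly lower.

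The start sites of the members with the largest mean differences are shown, since ACTL6B and SMARCA2 stood on opposite sides. Windows from 250 bases before to 50 after each start were taken from RefSeq on GRCh38.p14, which held 15 of them for 9 of the 10 genes and none for ACTL6A. ACTL6B has 1 window, on the minus strand of chromosome 7. SMARCA2 has 4 annotated starts on the plus strand of chromosome 9, of which the outermost and one that lies 142315 bases further in are shown. Capitals mark each CG pair, the site of DNA methylation.
ACTL6B, chr7:100656399-100656698, minus strand: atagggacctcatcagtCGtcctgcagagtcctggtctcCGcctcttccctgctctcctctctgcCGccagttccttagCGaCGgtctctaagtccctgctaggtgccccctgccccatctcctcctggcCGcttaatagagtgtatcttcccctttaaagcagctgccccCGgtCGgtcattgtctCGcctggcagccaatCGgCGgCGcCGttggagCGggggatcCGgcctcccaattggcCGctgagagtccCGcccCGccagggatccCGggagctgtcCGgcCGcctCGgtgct
SMARCA2 outermost start, chr9:2015097-2015396, plus strand: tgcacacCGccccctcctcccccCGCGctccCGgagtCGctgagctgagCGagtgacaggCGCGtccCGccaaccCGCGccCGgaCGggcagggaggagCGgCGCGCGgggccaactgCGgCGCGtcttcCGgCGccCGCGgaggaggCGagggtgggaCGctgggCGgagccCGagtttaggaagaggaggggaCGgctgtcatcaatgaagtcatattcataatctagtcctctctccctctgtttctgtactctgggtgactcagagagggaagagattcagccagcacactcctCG
SMARCA2 inner start, chr9:2157412-2157711, plus strand: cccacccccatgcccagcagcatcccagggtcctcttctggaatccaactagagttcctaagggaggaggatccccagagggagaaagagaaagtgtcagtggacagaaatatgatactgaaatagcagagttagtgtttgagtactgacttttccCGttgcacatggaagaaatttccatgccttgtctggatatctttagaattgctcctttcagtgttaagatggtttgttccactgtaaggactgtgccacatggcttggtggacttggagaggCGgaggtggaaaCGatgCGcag
The ACTL6B window held 22 CG pairs, the outermost SMARCA2 window 30 and the inner one 4, against a median of 14 over 35116 windows. As many or more were found in 37.7% of all windows for ACTL6B, 22.4% for the outermost SMARCA2 start and 75.5% for the inner one. The core of the REST site, searched on either strand as CAGCACC and GGACAG with 2 free bases between them, was in 0.0513% of all windows and in 0 of the 15. The left part alone, CAGCACC, was in 7.75% of all windows and in 1 of SMARCA4. GGACAG alone was in 20.5% of all windows and in 4 of the 15, of ACTL6B, SMARCA2, SMARCA4 and SS18. The files do not say which start a probe set reads.

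The actin-related subunits ACTL6A and ACTL6B occupy the same place in the complex. ACTL6A (chr3:179562926-179588407), which also belongs to the INO80 and NuA4 (TIP60) complexes, read 8.02 in Shef3, 8.45 in H14 and 9.55 in Shef1 in FGF3+10. In DFNB it read 8.41, 8.09 and 9.45, and in hESC 8.74, 8.70 and 9.32, in the same order of lines and on the deposited log scale, taken as log2. The groups overlapped, and in each group Shef1 was the highest line. For FGF3+10 against hESC its log2 change came to -0.25 ± 0.50 (SE, 3 arrays a group), with a 95% interval of -1.40 to 0.90 (limma adjusted p = 0.879). It was -0.27 ± 0.50 for DFNB against hESC (-1.42 to 0.87, limma adjusted p = 0.823). Both media gave a lower value than hESC in Shef3 and H14, with changes between -0.73 and -0.26, and a higher one in Shef1, by 0.23 in FGF3+10 and 0.13 in DFNB. The median change of all genes had the same signs by line.

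ACTL6B (chr7:100643097-100656448), the subunit of neurons, read 2.77, 2.46 and 3.33 in FGF3+10 and 0.73, 1.46 and 2.90 in DFNB, against 3.29, 4.30 and 3.37 in hESC (Shef3, H14, Shef1). All 3 DFNB arrays lay below all 3 hESC arrays, while the FGF3+10 arrays overlapped with hESC. The main probe set of ACTL6B was below hESC in every line in both media, which held for 24.6% of all genes in FGF3+10 and 25.9% in DFNB. The change was -1.95 ± 0.57 for DFNB against hESC (95% interval -3.25 to -0.65, unadjusted p = 0.00833 and adjusted p = 0.176, limma). With arrays weighted by their estimated quality it was -2.70 and passed (limma adjusted p = 0.0234), though that estimation did not converge and 8.15% of all genes passed with it. For FGF3+10 against hESC it was -0.80 ± 0.57 (-2.10 to 0.51, limma adjusted p = 0.615), and leaving out 1 line or 1 array gave -1.18 (without Shef1) to -0.28 (without H14). Between the media ACTL6B was higher in FGF3+10 in all 3 lines, as were 9.4% of all genes, and the mean difference of 1.15 ± 0.57 did not pass (unadjusted p = 0.0763, adjusted p of 1.00, limma). These are low values, around and below the array median of 3.20, where the spread within groups is wide: its median SD was 0.889 for genes with means from 0 to 4 and 0.358 for genes above 8. With values below 4 set to 4, only the hESC array of H14 stood above that floor, and the changes were -0.10 in both media. The other probe set of ACTL6B averaged -8.12 over the 9 arrays and differed from hESC by -3.88 ± 1.46 in DFNB and -3.44 ± 1.46 in FGF3+10. For Shef1 in FGF3+10 its change was 0.39, where that of the main probe set was -0.04. Values below 0 on this scale lie among the noisiest, with a median SD of 0.968.

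**Figure D1:**
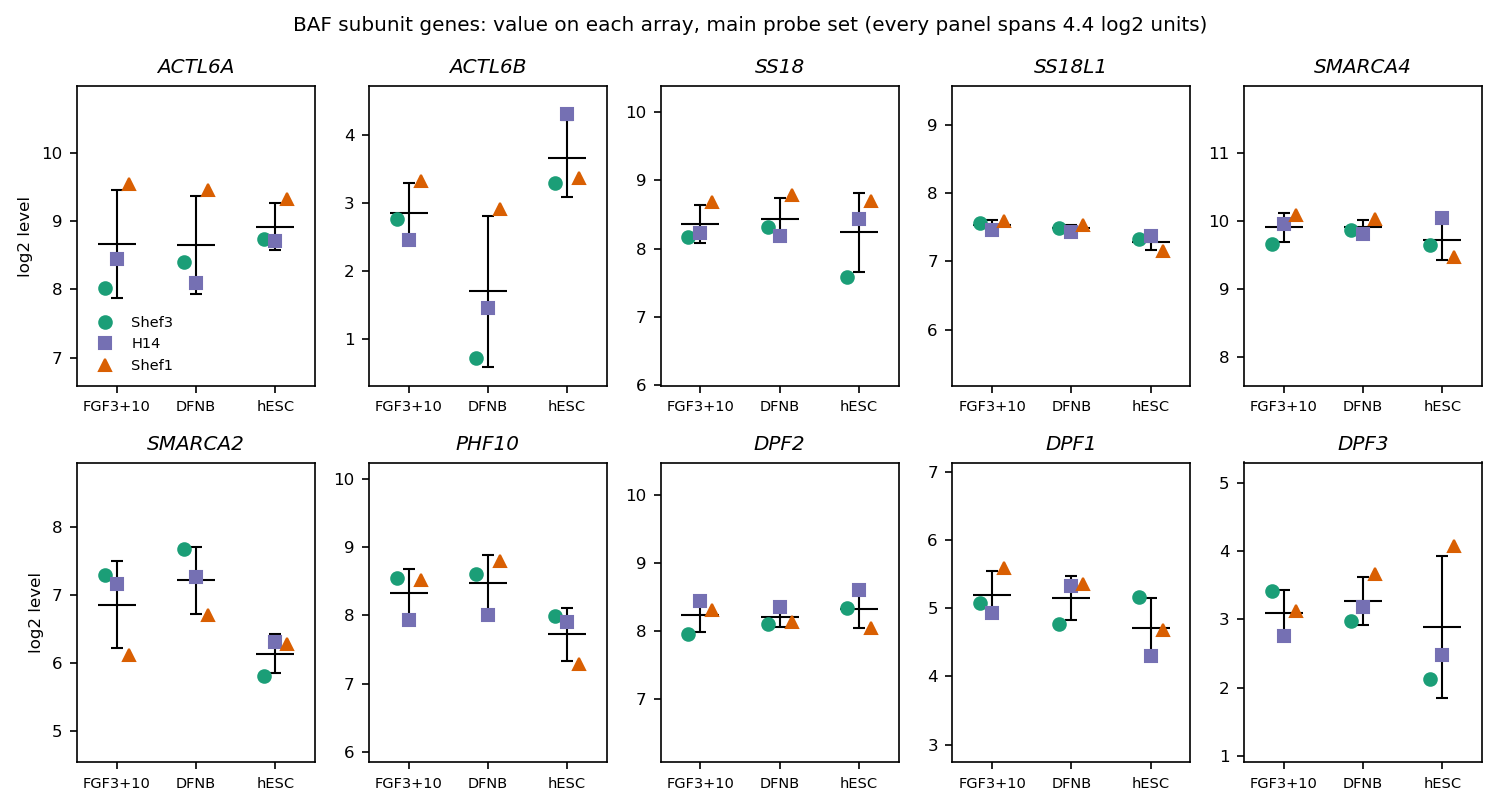
Log2 level (vertical axis) of the main probe set of each of the 10 BAF subunit genes on the 9 arrays, by group on the horizontal axis. Points are single arrays, shaped and coloured by cell line, and black bars give the mean and SD of 3 arrays. SMARCA2 stood higher and ACTL6B lower on all DFNB arrays than on all hESC arrays, and ACTL6A was highest in Shef1 in every group.

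SMARCA2 and SMARCA4 are the alternative motors of the complex. SMARCA2 (chr9:2015347-2193620) read 7.29, 7.16 and 6.12 in FGF3+10 and 7.68, 7.27 and 6.70 in DFNB, against 5.81, 6.31 and 6.29 in hESC. Every DFNB array exceeded every hESC array, and in FGF3+10 the Shef3 and H14 arrays did so while Shef1 lay within the hESC range. The change was 1.08 ± 0.41 for DFNB against hESC (95% interval 0.14 to 2.02, unadjusted p = 0.0292 and adjusted p = 0.270, limma). For FGF3+10 against hESC it was 0.72 ± 0.41 (-0.22 to 1.66, limma adjusted p = 0.528). By line (Shef3, H14, Shef1) the change was 1.48, 0.85 and -0.17 in FGF3+10, and 1.87, 0.95 and 0.42 in DFNB. Leaving out 1 line or 1 array gave changes from 0.34 (without Shef3) to 1.17 (without Shef1) in FGF3+10, and from 0.69 to 1.41 in DFNB.

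SMARCA2 has 7 probe sets, of which 4 averaged above 4. In group means all 4 were higher in both media, by 0.53 to 1.49 in FGF3+10 and by 0.94 to 1.59 in DFNB. The arrays of DFNB and hESC did not overlap for 3 of them. In Shef1 all 4 were lower than hESC in FGF3+10, with changes from -0.90 to -0.11. The probe set with the largest mean changes was also lower in Shef1 in DFNB, at -0.76. The 3 dim probe sets gave changes from -0.83 to 0.42 in FGF3+10 and from -0.04 to 0.12 in DFNB. Probe sets of 1 gene share its transcripts and arrays, so they are not separate evidence, and in the fit of all 54613 probe sets none of the 33 was called (0.0439% of all for FGF3+10 against hESC, 0.106% for DFNB against hESC). An unadjusted p below 0.05 was found for 3 of the 33 in FGF3+10 and 5 in DFNB, where 10.3% and 12.7% of all probe sets had one. Between the media it was 0 of the 33, against 1.76%.

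Markers of mesenchyme and feeder fibroblasts had their 3 highest list means on the 3 arrays with the highest SMARCA2. The mean level of their 15 measured genes was 10.3, 8.38 and 7.07 in FGF3+10 (Shef3, H14, Shef1), 10.7, 10.2 and 8.55 in DFNB and 8.01, 8.43 and 8.39 in hESC. By line, the median change of that list was 1.13, 0.03 and -0.996 in FGF3+10, and 1.73, 1.73 and 0.08 in DFNB. None of the 15 was called, and 1 was higher in FGF3+10 and 4 in DFNB at an unadjusted p below 0.05 (4.52% and 6.11% of all genes were). The number below 4 on all arrays of a group was 0 in FGF3+10, 0 in DFNB and 1 in hESC, and their part in the SMARCA2 values was not tested. For H14 in FGF3+10 SMARCA2 read 7.16 against 6.31 in hESC, while the list mean was 8.38 against 8.43. The 3 arrays with the highest SMARCA2 also had the 3 lowest list means of pluripotency genes (2.13 to 4.77) and of cell cycle genes (8.34 to 8.77). The part of those lists was not tested either. In RNA from whole cultures, fewer cells of a type and less RNA per cell cannot be told apart.

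SMARCA4 (chr19:10961030-11062273), the ATPase of mouse embryonic stem cells, read 9.67, 9.95 and 10.09 in FGF3+10 and 9.86, 9.81 and 10.03 in DFNB, against 9.65, 10.05 and 9.46 in hESC. The groups overlapped, and the 9 arrays spanned 0.63 log2 units. Its change was 0.18 ± 0.28 in each medium (95% interval -0.46 to 0.83 in both), with limma adjusted p of 0.839 for FGF3+10 and 0.785 for DFNB. Of its 7 probe sets above level 4, 7 were higher than hESC in FGF3+10 and 6 in DFNB. The change of SMARCA2 minus that of SMARCA4 was 1.46, 0.95 and -0.80 in FGF3+10, and 1.65, 1.19 and -0.15 in DFNB (Shef3, H14, Shef1). The sign thus differed between Shef1 and the other lines.

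**Figure D2:**
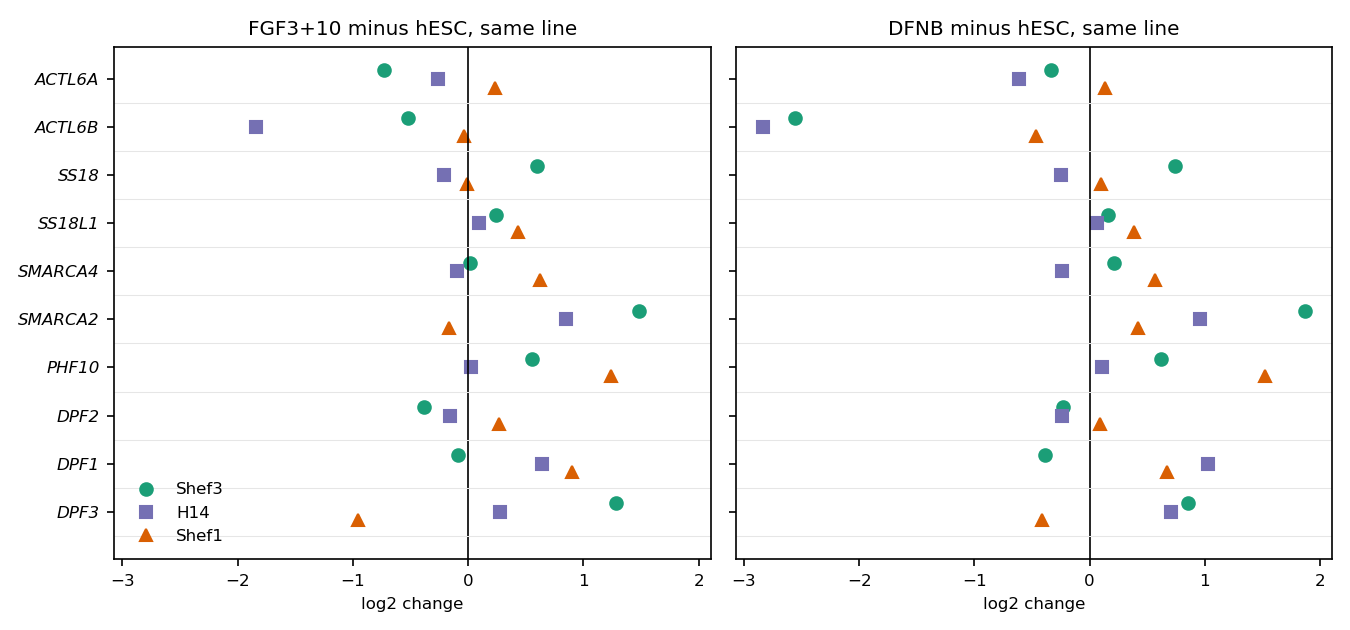
Log2 change at day 14 from the hESC array of the same cell line (horizontal axis) for the 10 genes, in FGF3+10 on the left and DFNB on the right. Each point is 1 line. On the main probe sets shown, SMARCA2 lay between -0.17 and 1.48 in FGF3+10 and between 0.42 and 1.87 in DFNB, and ACTL6B was below 0 in every line.

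The 4 genes with PHD fingers, which bind histone tails, share a place in the complex. PHF10 (chr6:169703902-169724500), the subunit of dividing progenitors, read 8.55, 7.93 and 8.52 in FGF3+10 and 8.61, 8.01 and 8.81 in DFNB, against 7.99, 7.90 and 7.28 in hESC. The DFNB arrays just cleared the hESC arrays, since H14 in DFNB exceeded Shef3 in hESC by little, and the FGF3+10 arrays overlapped with them. Its change was 0.61 ± 0.35 in FGF3+10 and 0.75 ± 0.35 in DFNB (limma adjusted p = 0.537 and 0.347), positive in all 3 lines, as for 13.3% and 15.9% of all genes. The other PHF10 probe set averaged 8.04 over the 9 arrays. It went the other way, by -0.27 ± 0.31 in FGF3+10 and -0.25 ± 0.31 in DFNB, so the probe sets of PHF10 disagree on the direction.

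DPF2 (chr11:65333852-65354262), a subunit found in most tissues, read 7.95, 8.44 and 8.31 in FGF3+10 and 8.10, 8.36 and 8.13 in DFNB, against 8.33, 8.59 and 8.05 in hESC. All 9 arrays lay within 0.65 log2 units, and the changes of -0.09 ± 0.29 and -0.13 ± 0.29 turned positive after quantile normalisation, at 0.08 in FGF3+10 and 0.03 in DFNB. DPF1 (chr19:38211006-38229695), a subunit of neurons, read 5.07, 4.93 and 5.58 in FGF3+10 and 4.77, 5.32 and 5.35 in DFNB, against 5.16, 4.29 and 4.68 in hESC. It was higher in H14 and Shef1 in both media and lower in Shef3, and the groups overlapped. The changes were 0.48 ± 0.35 in FGF3+10 and 0.44 ± 0.35 in DFNB (limma adjusted p = 0.617 and 0.566). Its other, dim probe set differed from hESC in the same direction by 1.70 ± 1.54 and 1.94 ± 1.54.

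DPF3 (chr14:72609034-72894101), known from neurons and from heart and skeletal muscle, read 3.41, 2.75 and 3.12 in FGF3+10 and 2.98, 3.18 and 3.66 in DFNB, against 2.13, 2.48 and 4.08 in hESC. The Shef1 hESC array was the highest of the 9, and the groups overlapped. Changes were 0.20 ± 0.51 and 0.38 ± 0.51 (limma adjusted p = 0.907 and 0.746). All 4 of its probe sets averaged below 4, and 2 of them were higher than hESC in FGF3+10 and 3 in DFNB. With values below 4 set to 4, the change of DPF3 was -0.03 in both media. Markers of striated and cardiac muscle, a tissue that makes DPF3, were read over 14 measured genes, none of them called. Their median change was -0.58 in FGF3+10 and -0.31 in DFNB, beside -0.19 over all genes in both. At an unadjusted p below 0.05, 1 was higher and 3 lower in FGF3+10, and 2 higher and 2 lower in DFNB. Of all genes 4.52% were higher and 7.47% lower by that mark in FGF3+10, and 6.11% higher and 9.69% lower in DFNB.

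**Figure D3:**
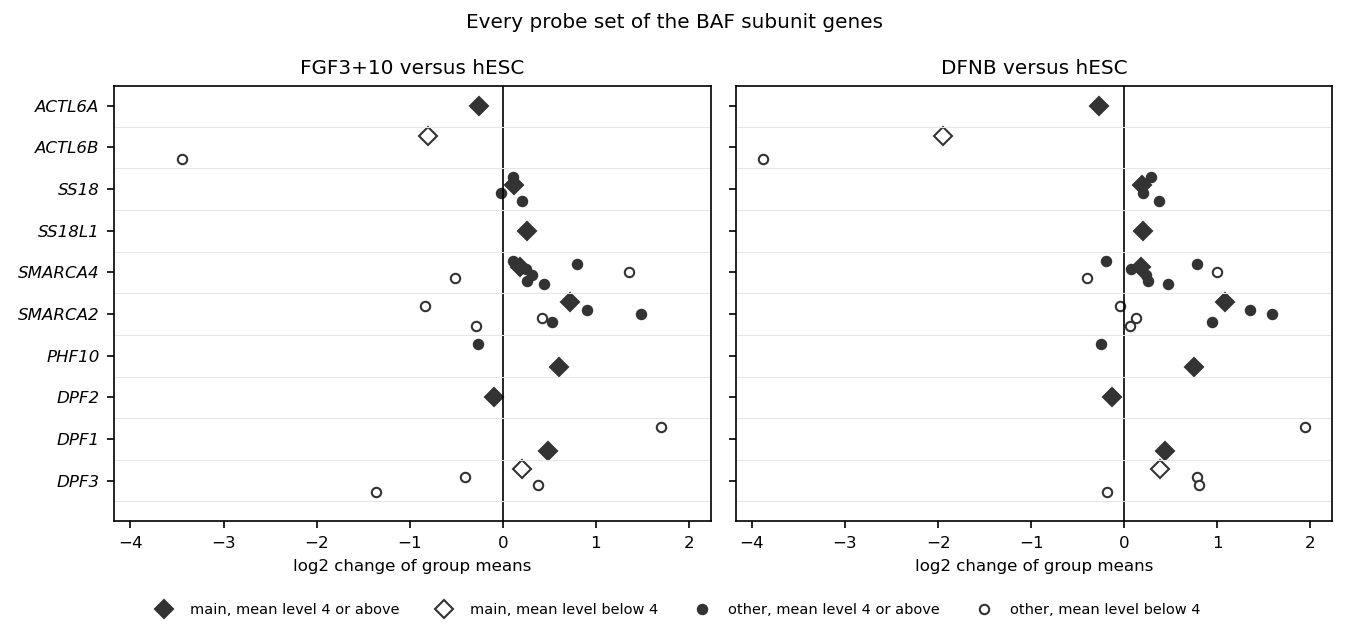
Log2 change of group means (horizontal axis) of all 33 probe sets of the 10 genes, FGF3+10 against hESC on the left and DFNB against hESC on the right. Diamonds are main probe sets and circles the others, filled where the mean over 9 arrays was 4 or above. The 4 filled SMARCA2 probe sets lie right of 0 in both panels, and the PHF10 probe sets lie on both sides of it.

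SS18 and SS18L1 are paralogues that join the complex without binding DNA themselves. SS18 (chr18:26016253-26091219) read 8.17, 8.23 and 8.68 in FGF3+10 and 8.32, 8.19 and 8.79 in DFNB, against 7.58, 8.44 and 8.70 in hESC. The groups overlapped, and the low hESC value was that of Shef3. The changes were 0.12 ± 0.37 and 0.20 ± 0.37 (limma adjusted p = 0.925 and 0.829), and 3 of 4 probe sets were higher than hESC in FGF3+10 and 4 in DFNB. SS18L1 (chr20:62143769-62182514), which in neurons takes part in the response to calcium, read 7.57, 7.46 and 7.59 in FGF3+10 and 7.48, 7.43 and 7.54 in DFNB, against 7.33, 7.37 and 7.16 in hESC. It was the gene with the narrowest span of the 10, 0.43 log2 units, and all 6 day 14 arrays lay above all 3 hESC arrays. The size was small, at 0.26 ± 0.24 in FGF3+10 and 0.20 ± 0.24 in DFNB. The 95% intervals of -0.30 to 0.81 and -0.36 to 0.76 include 0 (limma adjusted p = 0.711 and 0.717).

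Changes of neuronal and stem cell genes are set side by side here within each place in the complex. The change of ACTL6B minus that of ACTL6A averaged -0.55 ± 0.93 (SD, n = 3 lines) in FGF3+10 and -1.68 ± 0.94 in DFNB. SS18L1 minus SS18 averaged 0.13 ± 0.42 and 0.01 ± 0.51, and DPF1 minus PHF10 averaged -0.12 ± 0.66 and -0.31 ± 1.07. DPF1 minus DPF2 averaged 0.58 ± 0.25 in FGF3+10, positive in all 3 lines, and 0.56 ± 0.71 in DFNB, positive in 2. DPF3 minus PHF10 averaged -0.41 ± 1.57 and -0.37 ± 1.37, and DPF3 minus DPF2 averaged 0.29 ± 1.45 and 0.51 ± 0.88, each positive in 2 lines. These differences describe unequal change and were not tested. Both media are set against the same 3 hESC arrays.

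Between the media, FGF3+10 against DFNB, the 10 changes ran from -0.36 for SMARCA2 to 1.15 for ACTL6B, and the rest lay between -0.18 for DPF3 and 0.05 for SS18L1. For SMARCA2 the difference was below 0 in all 3 lines, at -0.39, -0.10 and -0.58, as for 12.5% of all genes. The 95% interval was -1.30 to 0.58 for SMARCA2 and -0.15 to 2.46 for ACTL6B, and both include 0.

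Differences between the lines were tested with group held in the model, and none of the 10 genes was called (0.46% of all genes were). ACTL6A alone of them had an unadjusted p below 0.05, as did 20.3% of all genes. Its limma moderated F test gave an adjusted p of 0.156. With array weights ACTL6A and SMARCA2 passed (limma adjusted p = 0.0179 and 0.0468), 2 of the 10 where 22.6% of all genes passed. Over the 3 arrays of a line, 1 from each group, ACTL6A averaged 9.44 ± 0.12 (SD) in Shef1, against 8.39 ± 0.36 in Shef3 and 8.41 ± 0.31 in H14. No array of the other lines reached the lowest of Shef1. The SDs by line given here are spreads across the 3 groups within a line. Bacterial transcripts added to the RNA before labelling also read higher on Shef1, at 7.45 ± 0.04 against 5.33 ± 0.35 in Shef3 and 5.34 ± 0.06 in H14, and their part in the ACTL6A levels was not tested. Genes of the cell cycle had a median day 14 change in Shef1 of 0.30 in FGF3+10 and 0.09 in DFNB. It was -1.38 and -1.03 in Shef3, and -0.29 and -1.03 in H14. The differences between the 3' and 5' control probe sets of GAPDH ran from 0.14 to 0.53 log2 units and those of ACTB from 0.08 to 0.69 over the 9 arrays.

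The rest of the complex gave no call either. Of 20 other SWI/SNF subunit genes 0 passed in any comparison, and their median change was 0.10 in FGF3+10 and 0.16 in DFNB, beside -0.19 over all genes in both. At an unadjusted p below 0.05, 2 of the 20 were higher in DFNB and none lower, where 6.11% of all genes were higher and 9.69% lower. SMARCD3 (BAF60C), a subunit that works with heart and muscle transcription factors, read 7.62, 6.75 and 5.51 in FGF3+10 and 7.77, 7.38 and 5.84 in DFNB, against 5.77, 5.44 and 4.23 in hESC. Within every line it was higher at day 14, and the change was 1.48 ± 0.70 in FGF3+10 and 1.85 ± 0.70 in DFNB (limma adjusted p = 0.448 and 0.268). SMARCE1 (BAF57), a DNA-binding core subunit, stood above hESC on all 6 day 14 arrays, with changes of 0.63 ± 0.29 and 0.70 ± 0.29 (limma adjusted p = 0.434 and 0.291). The scaffold SMARCC1 (BAF155) differed from hESC by -0.12 ± 0.31 and -0.18 ± 0.31. SMARCC2 (BAF170), its paralogue, which is scarce in mouse embryonic stem cells, differed from hESC by 0.58 ± 0.36 and 0.66 ± 0.36, and neither gene passed.

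**Figure D4:**
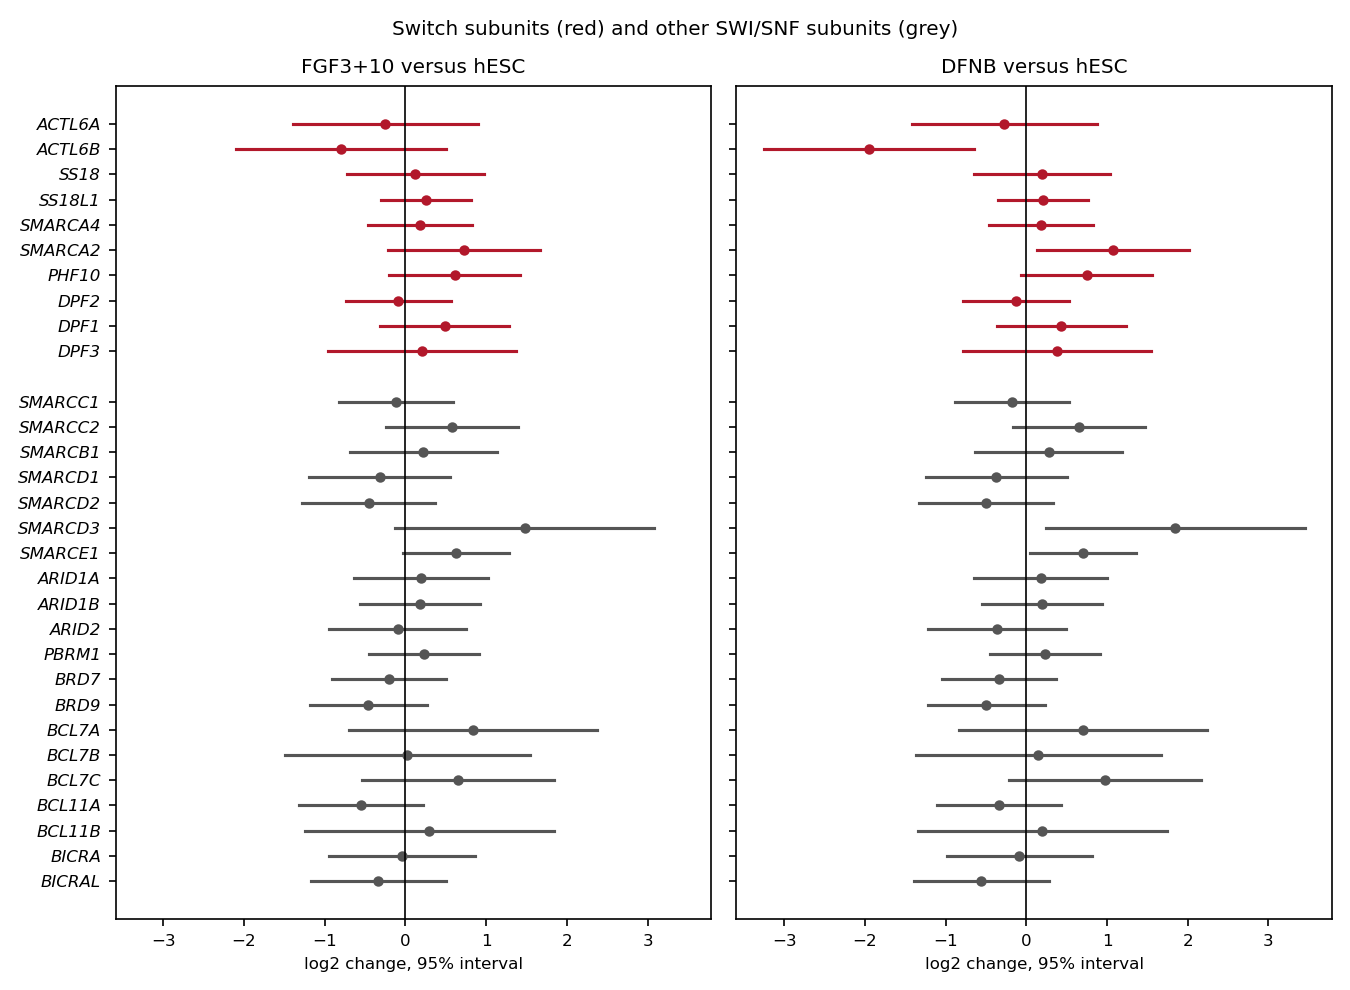
Log2 change against hESC with its 95% interval (horizontal axis) for the 10 switch subunits in red and 20 other SWI/SNF subunit genes in grey, FGF3+10 on the left and DFNB on the right. Intervals are per gene and not adjusted for the number of genes. In DFNB the intervals of ACTL6B, SMARCA2, SMARCD3 and SMARCE1 leave out 0, and in FGF3+10 none does.

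Candidate regulators of the exchange were read next, not all of which are known to act on it. Of 13 measured candidates 0 passed in either medium. At an unadjusted p below 0.05 there were 1 higher and 1 lower in FGF3+10 and 1 lower in DFNB. By that mark 4.52% of all genes were higher and 7.47% lower in FGF3+10, and 6.11% higher and 9.69% lower in DFNB. REST, the repressor of neuronal genes, read 8.04, 7.99 and 8.72 in FGF3+10 and 8.03, 7.80 and 8.52 in DFNB, against 8.65, 8.55 and 8.49 in hESC, lower than hESC in Shef3 and H14 and higher in Shef1. Its change was -0.31 ± 0.32 and -0.44 ± 0.32 (limma adjusted p = 0.738 and 0.531), and REST was chosen by name after its values were seen. MIR124-2HG, a host transcript of miR-124, stayed below 4 on all 9 arrays and differed from hESC by 1.36 ± 0.53 and 1.09 ± 0.53 (limma adjusted p = 0.347 and 0.354). MIR9-1HG, a host of miR-9, differed from hESC by -1.16 ± 0.51 and -1.14 ± 0.51 (limma adjusted p = 0.421 and 0.327). PTBP3, of the splicing repressor family, differed from hESC by -0.66 ± 0.29 and -0.71 ± 0.29 (limma adjusted p = 0.416 and 0.290). Of 22 other chromatin remodeller genes and 17 partners of ACTL6A in INO80, SRCAP and NuA4, 0 passed. At an unadjusted p below 0.05 there were 1 remodeller higher and 1 lower, in DFNB alone, beside 6.11% and 9.69% of all genes. Their median changes were 0.06 and 0.04 for the remodellers and -0.13 and -0.14 for the partners, beside -0.19 over all genes in both media.

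Markers of the cells that carry either form of the complex were read on the same arrays. The mean level of 20 measured genes of postmitotic neurons lay between 5.41 and 5.71 in FGF3+10 and between 5.72 and 6.46 in DFNB, against 5.22 to 5.96 in hESC. Their median change was -0.05 in FGF3+10 and 0.31 in DFNB, beside -0.19 over all genes in both, and none of the 20 was called. At an unadjusted p below 0.05, 2 were higher and 1 lower in FGF3+10, and 3 higher and 0 lower in DFNB. Over all genes, 4.52% were higher and 7.47% lower in FGF3+10, and 6.11% higher and 9.69% lower in DFNB. Neural progenitor genes stood at 6.80 to 7.79 in FGF3+10 and 6.64 to 7.78 in DFNB, against 5.56 to 6.41 in hESC over 19 measured genes, with median changes of 0.81 and 1.41 and none called. By the same mark 7 of these 19 were higher and 0 lower in FGF3+10, and 9 higher and 1 lower in DFNB. Pluripotency genes stood at 2.13 to 6.49 and 2.14 to 6.42, against 7.87 to 8.84 in hESC, with no overlap between day 14 and day 0. The loss was uneven between lines and smallest in Shef1. By line (Shef3, H14, Shef1) their median change was -5.23, -1.54 and -0.58 in FGF3+10, and -4.91, -3.23 and -0.40 in DFNB. Of the 18 measured, 2, DNMT3L and DPPA5, were called lower in each medium. By the unadjusted mark 7 pluripotency genes were lower and 0 higher in each. Glial genes had median changes of -0.36 and 0.14 over 9 genes, with 0 past the unadjusted mark in FGF3+10 and 1 lower in DFNB. Endoderm genes had -3.16 and -2.71 over 10, with 7 lower in FGF3+10 and 5 lower in DFNB. Their mean level was 3.19 to 4.72 in FGF3+10 and 4.00 to 4.69 in DFNB, against 6.46 to 8.03 in hESC. The day 0 cultures thus read highest for endoderm markers. Cell cycle genes had median changes of -0.49 and -0.65 over 22, with 0 past the unadjusted mark. None of these was called.

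For the 3 genes with the widest span over the arrays, the genes of most similar profile were sought by the mean absolute difference between centred profiles over the 9 arrays. For ACTL6B, which spanned 3.57 log2 units, these were GLYAT, CNTD1 and HHEX, at 0.216 to 0.239. For DPF3, spanning 1.95, they were MEF2D, STAC3 and F2R, at 0.186 to 0.189. For SMARCA2, spanning 1.87, they were DENND1B, ANTXR1 and P3H4, at 0.129 to 0.132. ANTXR1, a receptor that binds collagen, read 9.57, 9.39 and 8.65 in FGF3+10 and 9.71, 9.44 and 9.03 in DFNB, against 8.22, 8.79 and 8.42 in hESC.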

How the data were processed

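The values, taken as log2, are those the authors deposited in the series matrix, already normalised as far as the values show, since every array has a median of 3.20. The base of the log is not stated in any source used here. The array software, background correction and probe summary method were not given in the sources used here. Arrays have no read depth, and their number limits the precision. Levels are not compared between probe sets, and those whose names end in _s_at or _x_at may read several transcripts.

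Per the labels' protocols, amplification by in vitro transcription started from 200 ng of RNA. Of 54675 probe sets, 62 were controls, 41091 had 1 gene symbol in the platform annotation and 1801 had several. Symbols were updated through Entrez identifiers (41037 matched), and the brightest probe set on average stood for each of 19775 genes. The test was that of limma 3.58.1 (lmFit, eBayes; R 4.3.3), with a mean per group and 1 residual spread from the 9 arrays. Benjamini-Hochberg adjustment ran over the whole table, with calls at 0.05. Intervals use the moderated SE. The fit was tested on simulated data.

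The same lines occur in every group, so arrays are paired by cell line. Deviations from group means correlated within lines at 0.181, 0.258 and 0.283 (Shef3, H14, Shef1) for FGF3+10 and hESC, at 0.105, 0.0861 and 0.338 for DFNB and hESC, and at 0.400, 0.331 and 0.713 for FGF3+10 and DFNB. The DFNB array of H14 correlated more with the hESC array of another line, at 0.173. Each other within-line value exceeded the highest with another line, for Shef3 in DFNB and hESC by little (0.0795). The main fit has no block. Alternatives were a cell line block, quantile normalisation, a floor of 4, leaving out dim genes, the mean of probe sets, each other probe set, array weights, and leaving out arrays or lines. Members, lists and rules of naming were chosen with earlier results of these data known. Named are all members, called genes of a list or else those of largest moderated t, and the most similar profiles. Not every gene that this rule selects was named, and for several lists none was. Genes described beyond that rule, SMARCC1 and REST, were chosen after their values were seen.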

Additional observations from a re-analysis of the deposited data

Results flagged for a closer look

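For 6 of the 10 genes, some lines lay above hESC in both media and others below it in both, and the value given is the mean change of the lines above minus that of the lines below. Each difference is positive by this sorting of lines, and both media are set against the same hESC array of a line. The share of all genes with such a division was not counted. The differences were not tested, and each line has 1 array per group. ACTL6A differed by 0.664, with 0.18 in Shef1 and -0.484 in Shef3 and H14. DPF2, with the same division, differed by 0.431 (0.179 and -0.252). The median change of all genes had that division too. By line (Shef3, H14, Shef1) it was -0.39, -0.23 and 0.06 in FGF3+10, and -0.31, -0.29 and 0.04 in DFNB. Its part in the values of ACTL6A and DPF2 was not tested. After quantile normalisation the mean change of ACTL6A was -0.05 in FGF3+10 and -0.10 in DFNB. DPF1 differed by 1.05, with 0.81 in H14 and Shef1 and -0.239 in Shef3. DPF3 differed by 1.46, with 0.78 in Shef3 and H14 and -0.684 in Shef1. SS18 differed by 0.895, with 0.667 in Shef3 and -0.228 in H14. Shef1 is in neither mean for SS18, since its changes were -0.01 in FGF3+10 and 0.10 in DFNB. SMARCA4 differed by 0.525, with 0.358 in Shef3 and Shef1 and -0.167 in H14.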

How the results depend on the processing

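Of 603 values of member changes under alternatives, 530 kept direction and side of the threshold, 72 reversed, 1 passed that had not, and 0 lost a call. With cell line as replicate block, 0 members were called in any comparison, and the lowest adjusted p was 0.122, for ACTL6B in DFNB. The block gave 115 called genes for FGF3+10 and 189 for DFNB, against 35 and 40 without it. With array weights, whose estimation stopped before it converged, 1 member was called for DFNB (ACTL6B, -2.70, adjusted p = 0.0234, limma) and 2 between lines (ACTL6A and SMARCA2, adjusted p = 0.0179 and 0.0468, limma). The cause was not tested. Leaving out 1 array or line gave 0 to 0 members called throughout, and 0 to 32 genes for FGF3+10, 0 to 72 for DFNB, 0 to 0 between media and 4 to 55 between lines. Other counts of called genes for FGF3+10, DFNB and lines, beside 35, 40 and 91, were 284, 1612 and 4475 with weights, 123, 183 and 468 with the floor, 66, 122 and 491 without dim genes, 31, 40 and 217 with the mean of probe sets, and 38, 40 and 58 after quantile normalisation.

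Reversed values, against hESC unless said otherwise, were as follows, and the cause was not tested. Quantile normalisation gave DPF2 0.0839 in FGF3+10 and 0.0253 in DFNB, and SMARCA4 0.0301 between media. The floor gave DPF3 -0.0255 in both media. The mean of probe sets gave DPF3 -0.299 in FGF3+10, DPF1 -0.0963 between media and SMARCA4 0.0879 between media. Weights gave SS18 -0.0421 in FGF3+10 and -0.000605 in DFNB, and SMARCA4 -0.00631 in DFNB and 0.0586 between media. Other probe sets gave PHF10 -0.269 in FGF3+10 and -0.253 in DFNB, DPF3 -1.36, -0.409 in FGF3+10 and -0.184 in DFNB, and SS18 -0.0182 in FGF3+10. They gave SMARCA2 -0.286 and -0.834 in FGF3+10, -0.0418 in DFNB and 0.30 between media, and DPF1 -0.240 between media. For SMARCA4 they gave -0.514 in FGF3+10, -0.197 and -0.398 in DFNB, and 0.00834, 0.0789, 0.175, 0.00644, 0.310 and 0.353 between media. Leaving out arrays or lines gave, for FGF3+10, ACTL6A -0.69 to 0.077, DPF2 -0.27 to 0.056, DPF3 -0.34 to 0.79, SS18 -0.20 to 0.35, SMARCA4 -0.0401 to 0.35. For DFNB it gave ACTL6A -0.68 to 0.0066, DPF2 -0.27 to 0.0091, DPF3 -0.0013 to 0.97, SS18 -0.13 to 0.42, SMARCA4 -0.0102 to 0.39. Between media it gave ACTL6A -0.42 to 0.43, PHF10 -0.37 to 0.062, DPF1 -0.15 to 0.27, DPF2 -0.067 to 0.18, DPF3 -0.48 to 0.014, SS18 -0.23 to 0.11, SMARCA2 -0.62 to 0.0099, SMARCA4 -0.095 to 0.12. The ranges without a reversal were, for FGF3+10, ACTL6B -1.18 to -0.28, PHF10 0.29 to 0.90, DPF1 0.27 to 0.77, SS18L1 0.17 to 0.34 and SMARCA2 0.34 to 1.17. For DFNB they were ACTL6B -2.70 to -1.47, PHF10 0.36 to 1.07, DPF1 0.14 to 0.85, SS18L1 0.11 to 0.27 and SMARCA2 0.69 to 1.41. ACTL6B and DPF3 lie among dim genes, which limits how their size can be read.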
